A study of Rattus norvegicus with 4 samples.

Results

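Lum GABA nuclei are nuclei of the rat ventral tegmental area that held transcripts of lumican (Lum), a small leucine-rich proteoglycan of the extracellular matrix, together with transcripts of Gad1, an enzyme that makes the inhibitory transmitter GABA. They were chosen by their own counts of unique molecular identifiers (UMIs, each standing for 1 captured transcript). A barcode was a member with a total of at least 2000 UMIs, at least 1 UMI of Lum, at least 1 of Gad1, none of Slc17a6, a vesicular glutamate transporter of midbrain neurons, and none of Isl1, a homeobox factor of hypothalamic and other GABA neurons. This rule found 163 members among 21606 barcodes, 15296 of which reached the UMI minimum. Because Lum, Gad1, Slc17a6 and Isl1 chose the members, these genes are described and not tested.

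The tissue was microdissected from experimentally naive adult Sprague-Dawley rats aged 90 to 120 days, frozen, lysed and sorted for nuclei before droplet sequencing of transcript ends. There were 4 libraries, each a pool of 3 rats of the same sex: female 1, female 2, male 1 and male 2, the order used below wherever 4 values stand together. No library carried a treatment or an altered allele, so sex was the labelled difference, and the library was the replicate. Members were set against 1028 other GABA nuclei from the same libraries, of which 46 held Isl1 (36 of them in male 1), and which had at least 2000 UMIs, Gad1 and Slc32a1 (the vesicular GABA transporter), and neither Lum nor Slc17a6. Narrower comparison classes were 294 Gata3 GABA nuclei (Gad1 and Gata3 present, no Lum, Slc17a6 or Isl1) and 300 Meis2 GABA nuclei (Gad1 and Meis2 present, no Gata3, Lum, Slc17a6 or Isl1). The members are the same in each comparison, and many nuclei of these 2 classes also belong to the 1028, so the comparisons are not independent of each other.

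GABA neurons of the ventral tegmental area and its borders inhibit neighbouring dopamine neurons and project to other regions. In the embryonic midbrain, many GABA neurons are specified through the factors Gata2, Gata3, Tal1 and Sox14, while Pax3 and Pax7 mark dorsal midbrain and Meis1 and Meis2 are homeodomain factors with roles in many neuron types. Small leucine-rich proteoglycans such as lumican, decorin (Dcn), keratocan (Kera) and epiphycan (Epyc) are secreted proteins best known for organising collagen in cornea, skin and cartilage, and neurons are not their usual textbook source.

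The genes of these 4 proteoglycans lie side by side in the rat genome, in the order Dcn, Lum, Kera, Epyc in the RefSeq annotation of the GRCr8 build. Lum chose the members, and Epyc was higher in them than in the other GABA nuclei. Whether the levels of Lum and Epyc vary together was not tested. The 250 bases before the start of Lum and of Epyc are shown. Capitals mark the letters TGACAG, the core sequence that MEIS factors are known to bind. RefSeq places the stretch before Lum at chr7:34245456-34245705 and the stretch before Epyc at chr7:34323082-34323331, both on the + strand. Each is written 5′ to 3′ and ends at the base before the gene's start.
Lum: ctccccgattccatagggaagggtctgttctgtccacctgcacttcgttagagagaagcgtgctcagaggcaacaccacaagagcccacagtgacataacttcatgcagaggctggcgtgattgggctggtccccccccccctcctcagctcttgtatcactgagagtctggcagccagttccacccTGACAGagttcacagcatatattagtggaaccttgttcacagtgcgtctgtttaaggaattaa
Epyc: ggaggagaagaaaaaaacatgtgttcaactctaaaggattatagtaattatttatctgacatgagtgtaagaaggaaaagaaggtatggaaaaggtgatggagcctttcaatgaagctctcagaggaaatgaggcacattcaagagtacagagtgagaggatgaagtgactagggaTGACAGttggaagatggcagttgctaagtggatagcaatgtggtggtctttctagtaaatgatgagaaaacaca
TGACAG or its reverse complement CTGTCA, searched on both strands, occurred 1 time in each stretch, its far end 63 bases before the start of Lum and 74 bases before the start of Epyc. The motif is common: 15.8% of 33469 RefSeq promoters of this length held it. Among the genes named below with the largest changes against the other GABA nuclei, 2 of 16 increases with a matched promoter held it (Spry1 and Hpgd), and 1 of 7 matched decreases (Kitlg). A match describes letters in this window and nothing more.

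Members numbered 27, 57, 35 and 44 in the 4 libraries. They made up 0.775% of nuclei at the UMI minimum in female 1 (95% Wilson interval 0.533 to 1.12), 1.43% in female 2 (1.10 to 1.85), 1.13% in male 1 (0.811 to 1.56) and 0.933% in male 2 (0.696 to 1.25). Female 2 was the highest and female 1 the lowest, so the 2 male libraries lay between the 2 female ones. The mean share was 1.10% ± 0.462 (SD, n = 2) in females and 1.03% ± 0.137 (SD, n = 2) in males, with an exact two-sided permutation p of 1.0, where 2 libraries against 2 cannot give a p below 0.333. Of nuclei with Gad1 and without Slc17a6 or Isl1, members were 9.91% ± 3.47 (SD, n = 2) in females and 10.5% ± 0.885 (SD, n = 2) in males (exact permutation p = 1.0). The order of the libraries was not the same under every depth setting. When every nucleus was thinned to 2000 UMIs before the rule was applied, the shares of nuclei were 0.287%, 0.326%, 0.547% and 0.382%, both female libraries lying below both male ones (female minus male -0.158 percentage points, where it was 0.0716 without thinning; exact permutation p = 0.333, the smallest possible). Thinning was a single random draw and left 10, 13, 17 and 18 members. With a minimum of 4000 UMIs and no thinning, the shares were 1.40%, 2.59%, 1.80% and 1.62%, in the same order as without that minimum. The Wilson intervals cover counting error alone.

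Total UMIs per library ran from 19714338 to 25824289, and the members' summed UMIs from 236717 to 487783. Median UMIs per member were 7087, 8200, 6780 and 5915.5, against 7800, 7825, 8284 and 6258 in the other GABA nuclei, so depth was similar and members were the shallower class in 3 of 4 libraries. Of all barcodes, 36 were shared between pairs of libraries, and 0 of these were members. A doublet caller marked 9 members, and 0 members had over 5% mitochondrial UMIs. Tests that compared classes had library as a block. Their p-values rest on how the class difference varied over these 4 pooled libraries. The sex test in members rests on the spread between libraries of the same sex.

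Lum itself was sparse. Members held a median of 3 Lum UMIs and at most 15, with exactly 1 in 32 members, 2 or more in 131 and 10 or more in 7. Lum stood at 448, 361, 491 and 590 CPM (a gene's summed count over the total count of its class in that library, on the usual CPM scale). In all, 205 barcodes held Lum. Those left out comprised 10 under the UMI minimum, 31 without Gad1, 1 with Slc17a6 and 0 with Isl1. Just inside the limit, the 32 members with 1 Lum UMI held Meis2 in 93.8% and Kit in 50.0%. The 131 members with more Lum held Meis2 in 96.9% and Kit in 84.0%. Just outside it, the 1409 nuclei that met the rule except for Lum held Meis2 in 30.5% and Kit in 17.1%, and the 31 Lum nuclei without Gad1 held Meis2 in 51.6% and Kit in 38.7%.

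The markers given for these cells were present to very different degrees. Gad1 was at 410, 332, 465 and 466 CPM in members and at 447 to 559 CPM in the other GABA nuclei. Slc32a1, which the rule required of the other GABA nuclei and not of members, was found in 136 of 163 members, or 25, 42, 33 and 36 by library. Female 2 was lowest, with 209 CPM against 292 to 357 CPM in the other libraries. Pdyn, the precursor of dynorphin opioid peptides, was found in 23 of 163 members, at 25.4, 16.4, 41.0 and 14.1 CPM, so most members had no Pdyn UMI. The leptomeningeal fibroblast genes Col1a1, Col1a2, Slc6a13 and Igf2 were at 0 UMIs in members, while Col3a1 and Dcn were detected. All 6 fibroblast markers summed to 0 to 29.6 CPM per library in members and 0.618 to 9.59 CPM in the other GABA nuclei. Dcn was found in 2 of 32 members with 1 Lum UMI and 6 of 131 with more. Among the 1409 nuclei that met the rule except for Lum, 9 held Dcn. Oligodendrocyte markers summed to 254 to 680 CPM in members, 417 to 1140 CPM in the other GABA nuclei and at least 23700 CPM in nuclei gated as oligodendrocytes (Mog and Mag present, Rbfox3 absent, 6146 nuclei). Lum was found in 7 of those 6146.

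Against the other GABA nuclei, members held far more RNA of Kit, the receptor tyrosine kinase for stem cell factor, of Fign, a microtubule-severing enzyme, of the neuronal nitric oxide synthase Nos1, of the peptide neurotensin (Nts) and of the muscarinic receptor Chrm5. They held far less of the GABA receptor subunit Gabrb2, of Tmem132d and of Tox, and no UMI of Gata3. Of 9903 genes tested with library as a block (edgeR quasi-likelihood test, Benjamini-Hochberg adjusted p under 0.05), 868 were higher in members (8.77%) and 720 lower (7.27%), 16.0% in all, and in 19.7% the libraries of the 2 classes did not overlap. The share called is the background for the counts in gene lists that follow, which were chosen with earlier results of these data known. The median log2 fold change over the genes tested was -0.024. DESeq2 called 1031 genes, and edgeR called 751 of the 6215 it tested once every nucleus was thinned to 2000 UMIs. For the class tests and the detection shares below, classes were chosen at full depth and then thinned, so all 163 members were kept.

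**Figure D1:**
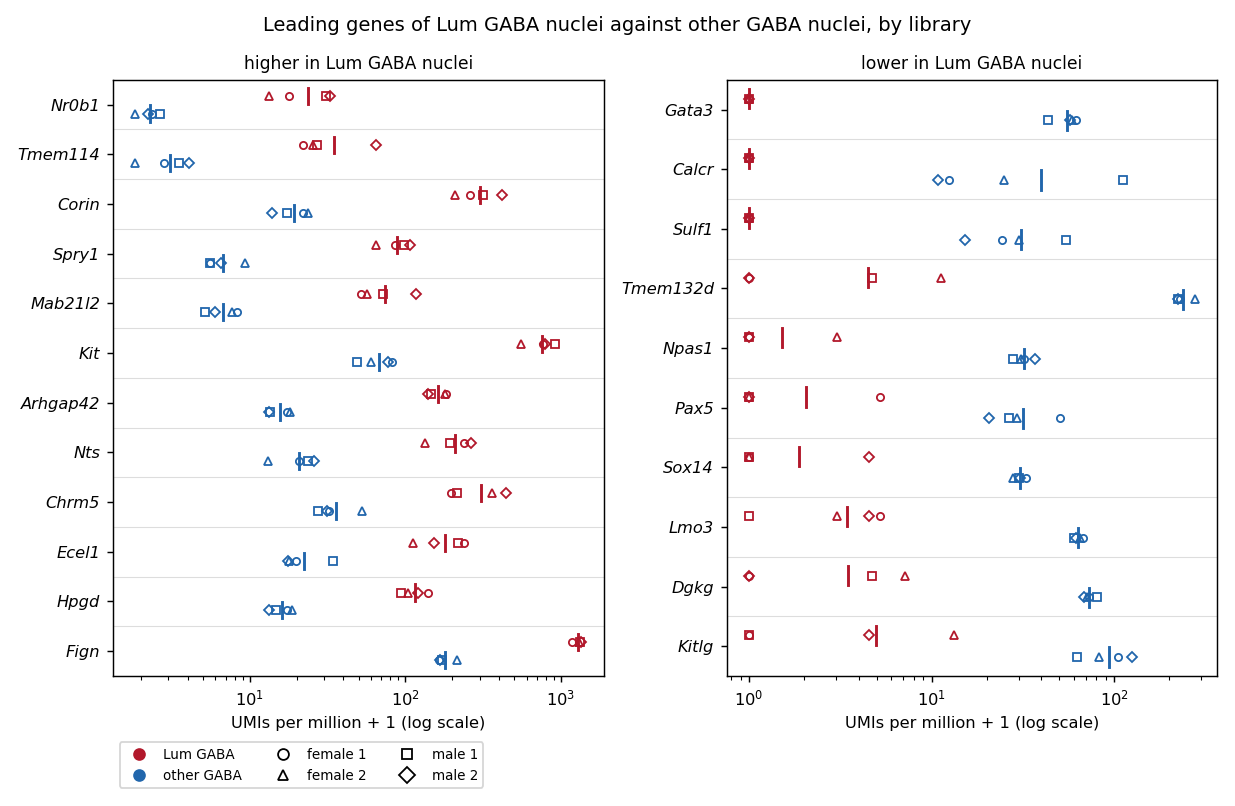
CPM plus 1 (log axis) for 12 of the genes with the largest increases (left) and 10 of those with the largest decreases (right), in Lum GABA nuclei (red) and other GABA nuclei (blue). Each symbol is a library and each bar the mean of 4; in the genes drawn the 2 classes do not overlap, and Gata3, Calcr and Sulf1 sit at 0 UMIs in members.

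Kit was at 769, 549, 916 and 791 CPM in members, while the other GABA nuclei were at 81.4, 59.4, 47.9 and 76.0 CPM. The lowest member library was thus several times the highest comparison library. The log2 fold change was 3.60 ± 0.14 (SE; edgeR adjusted p = 1.63e-16, higher in 4 of 4 libraries). Its ligand Kitlg went the other way, at 0, 12.3, 0 and 3.53 CPM in members against 104, 82.0, 61.3 and 124 CPM. Members held 7 Kitlg UMIs in all and overlapped with no comparison library (log2 fold change -3.96 ± 0.38, and -6.05 without female 2). Kitlg was low in both narrower classes as well, at 0 to 6.73 CPM in Gata3 nuclei and 0 to 34.6 CPM in Meis2 nuclei.

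Fign was at 1174, 1302, 1329 and 1348 CPM in members and at 163 to 213 CPM in the other GABA nuclei, a narrow spread within each class (log2 fold change 2.94 ± 0.10, edgeR adjusted p = 2.21e-17). The serine protease Corin, which activates atrial natriuretic peptide, was at 258, 207, 313 and 417 CPM against 13.0 to 22.6 CPM (4.03 ± 0.19, edgeR adjusted p = 5.75e-15). Npr3, the clearance receptor for natriuretic peptides, was low in absolute terms, at 12.7, 14.4, 33.5 and 31.8 CPM, and rose as well (3.12 ± 0.44). Spry1, an inhibitor of signalling downstream of receptor tyrosine kinases, was at 84.5, 63.6, 96.8 and 106 CPM against 4.57 to 8.37 CPM (3.92 ± 0.29). Egfr, a receptor tyrosine kinase named after its values were seen, averaged 1001 CPM in members and 145 CPM in the other GABA nuclei (2.90 ± 0.13).

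Among genes that averaged at least 20 CPM in members, the largest fold increases belonged to genes with few UMIs. Nr0b1, an orphan nuclear receptor, had 27 UMIs over all members (16.9, 12.3, 29.8 and 31.8 CPM, log2 fold change 4.09 ± 0.50). Tmem114 had 42, and male 2 alone reached 63.5 CPM where the other libraries lay between 21.1 and 26.1 (4.05 ± 0.42). The developmental gene Mab21l2 was at 50.7 to 117 CPM against 4.17 to 7.31 CPM (3.66 ± 0.30). Regulators of small GTPases were among the 20 largest increases (Arhgap42, Dock5 and Plekhg1, log2 fold changes 3.53, 3.48 and 3.28), as were Ecel1, a neuronal metallopeptidase (3.12), Prima1, the membrane anchor of acetylcholinesterase (3.11), Hpgd, which breaks down prostaglandins (2.96), and the chloride channel Cftr (3.01). The chromatin protein Hmga2 (3.35) depended on single libraries, with 2.75 without male 1 and 4.34 without female 2.

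Detection per nucleus gave the same order at equal depth. After every nucleus was thinned to 2000 UMIs, Kit was found in 59.1% ± 5.45 of members (SD, n = 4) and 8.88% ± 1.5 of the other GABA nuclei; without thinning the shares were 77.8% and 18.1%. In nuclei gated as oligodendrocytes, a class that should lack neuronal transcripts, the thinned share for Kit was 0.848%. Nos1 was found in 68.6% ± 2.98 of members, 14.7% ± 2.05 of the other GABA nuclei and 4.43% of oligodendrocyte-gated nuclei at 2000 UMIs (94.5%, 35.9% and 8.40% unthinned). Fign and Meis1 differ from the rest: they were found in 83.8% and 74.7% of members and also in 41.3% and 37.7% of oligodendrocyte-gated nuclei, a share above that of the other GABA nuclei (18.2% and 16.3%). Gata3 was found in 0 of 163 members, which allows a share of nuclei with a UMI of up to 1.84%, while 24.4% of the other GABA nuclei held it unthinned.

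**Figure D2:**
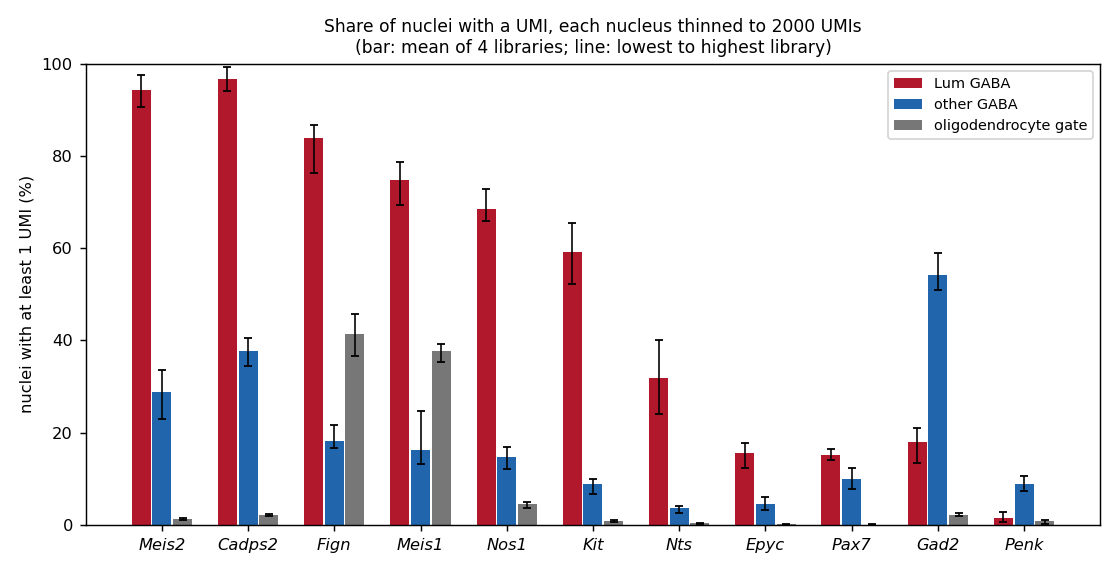
Percent of nuclei with at least 1 UMI of each gene after thinning every nucleus to 2000 UMIs, in Lum GABA nuclei (red), other GABA nuclei (blue) and nuclei gated as oligodendrocytes (grey); bars are means of 4 libraries and lines run from the lowest to the highest library. Meis2 and Cadps2 were found in 94.2% and 96.6% of members, while Gad2 and Penk were found in fewer members than other GABA nuclei.

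As a class, members held more RNA of several transcription factors that the rule did not use. Meis2 was at 2323, 1835, 2085 and 2058 CPM in members and at 370 to 619 CPM in the other GABA nuclei (log2 fold change 2.23 ± 0.11, edgeR adjusted p = 3.04e-14), and 157 of 163 members held it. Its relative Meis1 was at 896, 746, 815 and 815 CPM against 101 to 250 CPM (2.59 ± 0.16), and Nr2f1, a nuclear receptor that patterns the developing brain, at 114, 119, 171 and 191 CPM against 17.6 to 22.2 CPM (2.90 ± 0.18). None of these 3 overlapped between classes. Meis1 was found in 152 of 163 members. Fewer held Nr2f1, which was found in 15 of 32 members with 1 Lum UMI and 81 of 131 with more. The other direction was taken by Tox at 4.22 to 28.7 CPM against 219 to 345 CPM (-3.86 ± 0.21), by Zfhx3 (-3.46 ± 0.28) and by Zfpm2 (-3.06 ± 0.24). Female 2 held most of the Zfhx3 and Zfpm2 UMIs of members, and without it the values were -4.34 and -4.16.

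Several factors found in the other GABA nuclei had few or no UMIs in members. Gata3 itself, at 42.5 to 60.8 CPM in the other GABA nuclei, was at least 23.0-fold lower in members, taking the floor of 3 UMIs over all members. Sox14, Npas1 and Pax5 each had 1 UMI among the 163 members, in male 2, female 2 and female 1 in turn, against 252, 262 and 269 UMIs in the other GABA nuclei. With so few UMIs their fitted log2 fold changes (-4.96, -5.05 and -5.00) moved to -8.25, -8.19 and -7.97 without the library that held the UMI, and Pax5 to -4.39 without female 2, where members had none. Meis2 nuclei were also low in Sox14 (mean 5.33 CPM) and Pax5 (3.30 CPM), and neither was called between members and Meis2 nuclei (edgeR adjusted p = 0.299 and 0.423). Of 108 regional transcription factors listed, 42 were tested, and 13 were higher and 20 lower, with a median log2 fold change of -0.29. That is 78.6% called, beside 16.0% of all genes tested.

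**Figure D3:**
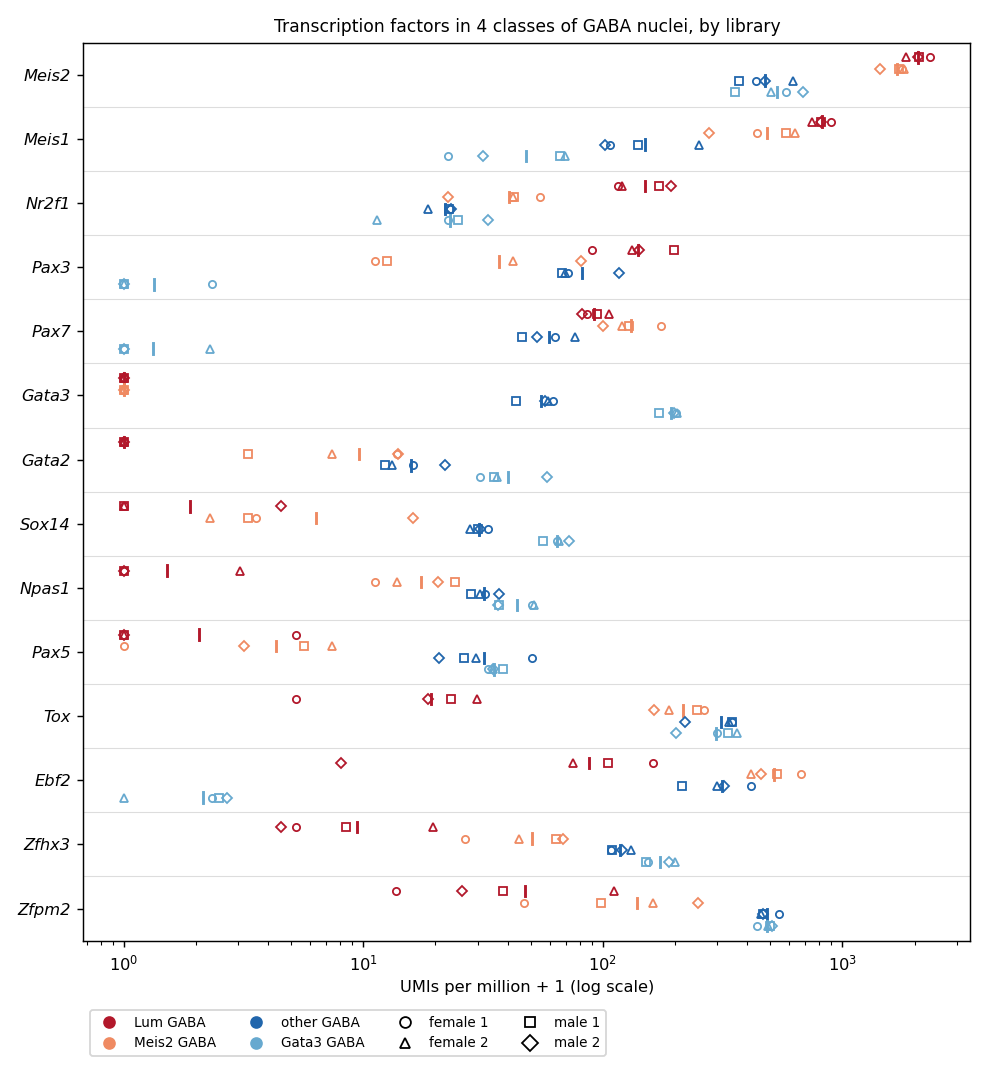
CPM plus 1 (log axis) of 14 transcription factors in Lum GABA nuclei (dark red), Meis2 GABA nuclei (orange), other GABA nuclei (dark blue) and Gata3 GABA nuclei (light blue); symbols are libraries and bars means of 4. Gata3 and Meis2 chose the Gata3 and Meis2 classes, so their levels there are set by the gates; Nr2f1 is highest in members, and Pax3 and Pax7 are near 0 in Gata3 nuclei.

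Set against Gata3 GABA nuclei, members differed in 1804 of 8152 genes (edgeR, 969 or 11.9% higher and 835 or 10.2% lower, 22.1% in all), with no overlap of libraries in 22.5%. The dorsal midbrain factors Pax3 and Pax7 separated these classes: Pax3 was at 88.7, 131, 197 and 141 CPM in members and had 1 UMI in all Gata3 nuclei (log2 fold change 7.90 ± 0.57), and Pax7 was at 84.5, 105, 93.1 and 81.2 CPM, also against 1 UMI (7.38 ± 0.45). These folds rest on the few UMIs of Gata3 nuclei, and rose to 9.41 for Pax3 without female 1 and to 8.41 for Pax7 without female 2. Chrna2, a nicotinic receptor subunit, was at 49.2 to 85.6 CPM in members and at 0 UMIs in Gata3 nuclei, at least 56.5-fold higher. Chrna2 and Pax7 were not called against Meis2 nuclei, which held Chrna2 at 41.6 to 74.2 CPM (log2 fold change 0.12, edgeR adjusted p = 0.872) and Pax7 at 99.6 to 174 CPM (-0.43, edgeR adjusted p = 0.177). Epyc was at 139, 197, 190 and 102 CPM in members against 3 UMIs in Gata3 nuclei, all in female 2 (7.09 ± 0.54, or 9.19 without female 2). Lower in members were Gata2, at 0 UMIs against 29.6 to 57.7 CPM (at least 16.2-fold lower), and Sox14. Tmem132d had 6 UMIs in members against 746 in Gata3 nuclei.

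Set against Meis2 GABA nuclei, which were chosen for a factor that nearly all members held, fewer genes differed: 625 of 8152 (edgeR, 316 or 3.88% higher and 309 or 3.79% lower, 7.67% in all), with no overlap of libraries in 9.40%. Whether this share differs from that of the Gata3 comparison was not tested, and both rest on the same members. Lum was sparse (median 3 UMIs in members), and thinning to 2000 UMIs before the rule was applied left 10, 13, 17 and 18 members. Nuclei like the members but without a captured Lum UMI can therefore lie among the Meis2 and other GABA nuclei. How many do, and what part they play in genes not called against Meis2 nuclei, was not tested. Kit again stood apart, at 81.0 to 215 CPM in Meis2 nuclei against 549 to 916 CPM in members (log2 fold change 2.67 ± 0.17, edgeR adjusted p = 2.5e-11). Fign (2.02 ± 0.14), Corin (2.23 ± 0.18), Spry1 (2.34 ± 0.30) and Mab21l2 (2.04 ± 0.32) were also higher.

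Among genes that averaged at least 20 CPM in the higher class, the largest increase over Meis2 nuclei was Rxfp1, the receptor for relaxin, at 71.8, 121, 153 and 166 CPM against 17.9, 19.2, 9.25 and 8.66 CPM (3.17 ± 0.30, edgeR adjusted p = 1.4e-08). Pax3 was higher too (1.97 ± 0.29), although Meis2 nuclei of male 2 reached 80.1 CPM, close to the 88.7 CPM of members in female 1. With the same minimum the largest decrease was Penk, the precursor of enkephalin peptides, at 4.22, 16.4, 48.4 and 7.06 CPM in members against 629, 293, 775 and 390 CPM (-4.63 ± 0.27, edgeR adjusted p = 8.12e-12). Penk came from few nuclei: 5 members held it, and in female 1, female 2 and male 1 all of its UMIs (1, 8 and 13) were in 1 nucleus each. Reln, Mpped2, Tmem132d and Lmo3 completed the 5 largest decreases with that minimum. At lower levels, Gata2 (-5.14, edgeR adjusted p = 0.0138) and Npas1 (-3.98, edgeR adjusted p = 0.00169) were called lower too, and Npas1 went to -6.08 without female 2. Reln UMIs in members all lay in female 2 (-3.91, and -7.33 without it), Tmem132d moved from -3.75 to -5.59 without female 2, and the Lmo3 call was lost without female 2 (edgeR adjusted p = 0.0638). Of the transcription factors, 4 of 36 tested were higher than in Meis2 nuclei and 9 lower, 36.1% beside 7.67% of all genes, with Ebf2 (-2.61 ± 0.21) and Tox (-3.35 ± 0.25) among the lower.

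Among the small leucine-rich proteoglycans, 17 of 18 listed genes were found by name and Epyc alone passed the filter on low counts besides Lum. Epyc was at 44.8, 63.2, 43.4 and 39.5 CPM in the other GABA nuclei, below the 102 to 197 CPM of members (log2 fold change 1.80 ± 0.15, edgeR adjusted p = 6.4e-10). Its UMIs were spread unevenly, with 48 members holding any and 15 holding 5 or more. Against Meis2 nuclei, where female 1 reached 118 CPM and the others 23.1 to 43.3 CPM, the log2 fold change was 1.79 ± 0.30 (2.46 without female 1), and DESeq2 did not call it (adjusted p = 0.23). Kera, which lies between Lum and Epyc, had 0 UMIs in members, and Dcn had 14, at 0 to 29.6 CPM. Of 38 other matrix genes listed, 26 were tested, and 5 were higher (Adamts17, Spon1, Tnc, Sparcl1 and Tnr) and 5 lower, with a median of -0.52. The share called was 38.5%, beside 16.0% of all genes. The matrix glycoprotein tenascin C (Tnc) was at 50.7, 51.3, 67 and 49.4 CPM against 2.29 to 12.6 CPM (2.93 ± 0.33), and the protease Adamts17 at 138 to 152 CPM against 24.6 to 36.4 CPM (2.42 ± 0.17).

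Gad2, the second GABA-synthesising enzyme, was at 97.2, 135, 138 and 77.7 CPM in members against 483, 447, 603 and 516 CPM (log2 fold change -2.06 ± 0.14, edgeR adjusted p = 7.07e-12), and 63 of 163 members held it. No member library approached the lowest comparison library. Abat, Slc6a11, Glul, Slc38a1 and Aldh5a1, which serve GABA synthesis, transport and breakdown, were not called, with log2 fold changes of -0.03 to 0.59. Gad2 was also lower than in Meis2 nuclei (-1.26 ± 0.17).

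Neuropeptide genes split evenly, with 4 of 10 tested higher (Nts, Vgf, Scg2 and Pdyn) and 4 lower (Penk, Sst, Tac1 and Pnoc), a share of 80.0% beside 16.0% of all genes. Nts was at 237, 133, 194 and 261 CPM in members and at 12.1 to 24.7 CPM in the other GABA nuclei (log2 fold change 3.46 ± 0.16, edgeR adjusted p = 5.27e-15). It was also broad, with 102 of 163 members holding a UMI. Vgf, a secreted granin-like protein, was at 314 to 491 CPM against 83.3 to 160 CPM (1.83 ± 0.11). Pdyn was higher than in the other GABA nuclei (2.06 ± 0.39, edgeR adjusted p = 0.000215) but not called against Meis2 nuclei (0.22, edgeR adjusted p = 0.85), where it stood at 8.66 to 30.7 CPM. Penk fell by 2.54 ± 0.27 on the log2 scale (3.17 without male 1). Somatostatin (Sst) was at 3.53 to 54.9 CPM against 70.3 to 128 CPM (-1.98, and -2.64 without female 1), and 11 of its 13 UMIs in female 1 came from 1 nucleus. Tac1, the substance P precursor, was called by edgeR (-1.41, and -2.13 without male 1) and not by DESeq2 (adjusted p = 0.16), and Pnoc lost its call without female 2 (edgeR adjusted p = 0.0567).

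Of 3 opioid receptor genes tested, 2 were called (66.7%, beside 16.0% of all genes), both higher in members than in the other GABA nuclei. The mu receptor Oprm1 was at 321, 369, 357 and 392 CPM against 124 to 212 CPM (log2 fold change 1.29 ± 0.13, edgeR adjusted p = 5.96e-09), and the delta receptor Oprd1 at 54.9 to 108 CPM against 19.6 to 31.0 CPM (1.61 ± 0.23). Oprl1 was tested and not called (0.46). Neither Oprm1 nor Oprd1 was called against Meis2 nuclei, where Oprm1 was at 390 to 581 CPM (-0.36, edgeR adjusted p = 0.26). In that comparison 0 of 3 tested receptors were called, beside 7.67% of all genes.

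Of the 11 neuropeptide receptor genes tested, 4 were higher and 3 lower, 63.6% called beside 16.0% of all genes. Trhr, the receptor for thyrotropin-releasing hormone, was at 194, 148, 175 and 212 CPM against 21.5 to 41.0 CPM (log2 fold change 2.67 ± 0.19, edgeR adjusted p = 1.47e-11). The orexin receptor Hcrtr2 had 3 UMIs in members against 32.5 to 44.4 CPM in the other GABA nuclei (-3.90, and -5.06 without male 2). The calcitonin receptor Calcr had 0 UMIs in members, at least 18.0-fold below the other GABA nuclei, but 1 comparison library decided its level: male 1 was at 111 CPM and the others at 9.88 to 23.9 CPM. Its call was lost when library was left out of the model (edgeR adjusted p = 0.0732). Calcr was low in both narrower classes too, at 0 to 11.6 CPM in Meis2 nuclei and 0 to 21.5 CPM in Gata3 nuclei. Male 1 also held 36 of the 46 other GABA nuclei with Isl1. Their part in the Calcr level was not tested.

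Receptors for acetylcholine, noradrenaline, serotonin, dopamine, histamine, cannabinoids and adenosine were listed together, and 18 of 43 were tested. Of these, 6 were higher and 6 lower, 66.7% called beside 16.0% of all genes. Chrm5 was at 194, 361, 212 and 445 CPM in members against 26.3 to 51.9 CPM (log2 fold change 3.16 ± 0.16, edgeR adjusted p = 1.9e-14) and also stood above Meis2 nuclei (76.4 to 143 CPM, 1.42 ± 0.17). The nicotinic subunit Chrna5 was at 237 to 313 CPM against 88.8 to 143 CPM (1.45 ± 0.13), a level that Meis2 nuclei matched (281 to 356 CPM, -0.16). The serotonin receptor Htr2c was lower (-3.02 ± 0.30), but member libraries ranged from 8.45 CPM in female 1 to 385 CPM in female 2 against 902 to 1199 CPM, and without female 2 the log2 fold change was -4.63. The nicotinic subunit Chrna7 (-1.66 ± 0.22) and the serotonin receptor Htr4 (-1.21 ± 0.17) were lower as well.

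The receptors through which neurons sense GABA and glycine were mostly lower: 10 of 17 tested genes fell and 5 rose, with a median log2 fold change of -0.92. That is 88.2% called, beside 16.0% of all genes tested. Gabrb2, a beta subunit of GABA-A receptors, was at 42.2, 102, 48.4 and 56.5 CPM against 410 to 493 CPM (-2.62 ± 0.17, edgeR adjusted p = 4.18e-12), and the glycine receptor subunit Glra2 at 3.72 to 16.9 CPM against 59.2 to 96.0 CPM (-3.02 ± 0.29). Gabrg3, Gabrb1 and Gabra4 fell by 1.55, 1.03 and 2.00 on the log2 scale. The 5 that rose, named after their values were seen, were Gabra2 (0.91 ± 0.14), Gabra3 (0.61), Gabrd (1.63), Gabrg1 (0.58) and the GABA-B subunit Gabbr1 (0.49). Of these, Gabra3 was not called at equal depth (thinned, adjusted p = 0.125), Gabrd was not called without male 1 (adjusted p = 0.0822), and Gabrg1 was lost under 5 alternatives.

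Against Meis2 nuclei 7 of the same 17 genes were lower and 1 higher, 47.1% beside 7.67% of all genes. Gabrb2 was again far below, at 286 to 366 CPM in Meis2 nuclei (log2 fold change -2.21 ± 0.18, edgeR adjusted p = 2.31e-09), as was Glra2 (-3.14 ± 0.32). The Gabrg3 call there was lost by DESeq2 (adjusted p = 0.14), without male 1 (0.0838) and without male 2 (0.056).

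**Figure D4:**
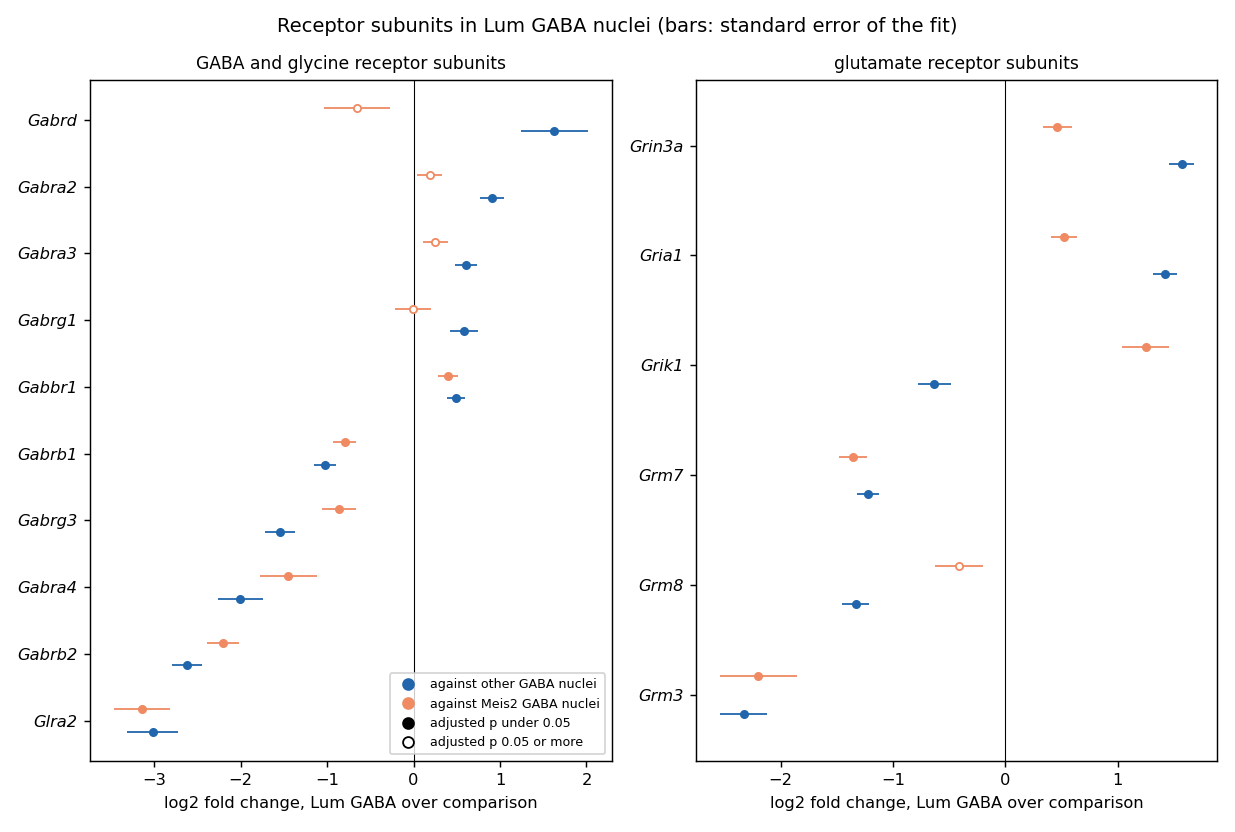
Fitted log2 fold changes of the GABA and glycine receptor genes (left) and glutamate receptor genes (right) named in the text, in Lum GABA nuclei, against other GABA nuclei (blue) and Meis2 GABA nuclei (orange). Lines are standard errors derived from the F statistic of the test, and filled points have an adjusted p under 0.05. Of the genes drawn, Glra2 and Gabrb2 lie lowest on the left in both comparisons, and Grik1 on the right is lower than in other GABA nuclei and higher than in Meis2 nuclei.

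Glutamate receptor genes showed no common direction: 8 of 22 tested were higher and 7 lower, median 0.20. The share called was 68.2%, beside 16.0% of all genes. The AMPA receptor subunit Gria1 was at 862, 677, 763 and 826 CPM in members against 283 to 339 CPM (log2 fold change 1.43 ± 0.11, edgeR adjusted p = 3.25e-11), and the NMDA subunit Grin3a at 309 to 414 CPM against 107 to 149 CPM (1.57 ± 0.11). Lower were the metabotropic receptor Grm7, tightly grouped at 434 to 463 CPM against 964 to 1236 CPM (-1.23 ± 0.10), Grm3 (-2.33 ± 0.21) and Grm8 (-1.33 ± 0.12). Grm7 and Grm3 were lower than in Meis2 nuclei as well (-1.36 ± 0.12 and -2.20 ± 0.34). The kainate subunit Grik1, at 108 to 208 CPM in members, lay between the other GABA nuclei at 247 to 335 CPM (-0.63 ± 0.15) and Meis2 nuclei at 49.8 to 99.9 CPM (1.25 ± 0.21).

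Of 45 voltage-gated channel genes tested, 16 were higher and 12 lower, 62.2% beside 16.0% of all genes, with a median of 0.12. Kcnip1, which modulates A-type potassium channels, was at 1888, 1941, 1776 and 2016 CPM in members against 359 to 601 CPM (log2 fold change 2.21 ± 0.10, edgeR adjusted p = 4.69e-15). The R-type and T-type calcium channels Cacna1e (1.51 ± 0.10) and Cacna1i (1.69 ± 0.16) were higher. Kcnc2, a potassium channel that allows fast firing, was at 42.2, 101, 44.7 and 63.5 CPM against 462 to 578 CPM (-2.84 ± 0.17, edgeR adjusted p = 7.36e-13), and the calcium channel subunit Cacna2d3 at 7.45 to 84.1 CPM against 551 to 793 CPM (-3.65, and -4.43 without female 2). Kcnip1, Cacna1e, Kcnc2 and Cacna2d3 had the same direction and were called against Meis2 nuclei.

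Adhesion and guidance genes also moved in both directions, 26 of 67 tested higher and 23 lower, with a median of 0.075. That is 73.1% called, beside 16.0% of all genes. Robo1, a receptor for the guidance cue Slit, was at 29.6, 90.2, 41.0 and 127 CPM in members against 700 to 960 CPM (log2 fold change -3.36 ± 0.18, edgeR adjusted p = 1.2e-13). Cadherin 18 (Cdh18, -2.96 ± 0.16) and contactin 6 (Cntn6, -2.39 ± 0.15) were lower, while contactin 5 (Cntn5), at 2174 to 2602 CPM against 504 to 900 CPM, was higher (1.90 ± 0.11). Semaphorin 5a (Sema5a) was higher too (1.96 ± 0.13). These 5 genes had the same direction and were called against Meis2 nuclei.

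In nitric oxide signalling, Nos1 was at 541, 564, 681 and 720 CPM in members against 78.2 to 109 CPM (log2 fold change 2.84 ± 0.11, edgeR adjusted p = 3.16e-16), and 155 of 163 members held it. Gucy1a1, a subunit of the guanylyl cyclase that nitric oxide activates, was at 185 to 215 CPM against 58.7 to 94.2 CPM (1.34 ± 0.14). Against Meis2 nuclei Nos1 was higher (1.38 ± 0.13) and Gucy1a1 was not called (0.15). Cadps2, which primes dense-core vesicles for release, was at 4136, 3190, 3629 and 3163 CPM against 585 to 783 CPM (2.42 ± 0.09, edgeR adjusted p = 2.14e-16), and 158 of 163 members held it. Of the calcium-binding proteins, 4 of 8 tested were higher and 1, calretinin (Calb2), lower (-2.43 ± 0.36), 62.5% called beside 16.0% of all genes. Bdnf, the neurotrophin, had 0 UMIs in members and 11.1 to 12.6 CPM in the other GABA nuclei.

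Between female and male members, 9 of 5777 genes were called (edgeR, female minus male, 0.156%), 4 higher in females (0.0692%) and 5 higher in males (0.0866%). An unadjusted p under 0.05 was reached by 342 genes, and DESeq2 called 6. Leaving out 1 library, with 1 left in that sex, gave from 13 to 77 calls, the most without female 1, and thinning left 1. The 5 higher in males comprised the Y-linked genes Kdm5d, Eif2s3y and Ddx3 and 2 unnamed features (AC241873.1 and AC239701.4), which checks the sex labels: Kdm5d was at 0 CPM in both female libraries and at 119 and 166 CPM in the male ones. Of the 4 higher in females, AABR07039356.2 had 10 and 83 UMIs in females and 0 in males, and DESeq2 did not call it (adjusted p = 0.697). In the other GABA nuclei it had 107 and 364 UMIs in the female libraries and 0 in the male ones.

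The remaining genes called higher in females were Gabrg3, Pde3a and Dach1, whose UMIs were spread unevenly over nuclei. Gabrg3, a GABA-A receptor subunit, was at 469 and 422 CPM in female members and 145 and 184 CPM in male members (log2 fold change 1.41 ± 0.23, edgeR adjusted p = 0.00101), with no overlap. In female 1, 103 of its 111 UMIs lay in 1 nucleus, while in female 2 it was found in 15 nuclei, the highest holding 49 of 206 UMIs. The call was lost where members needed at least 2 Lum UMIs (0.74, adjusted p = 1.0) and at equal depth (0.71, adjusted p = 0.918). Pde3a was called at 2.06 ± 0.38 and Dach1 at 1.16 ± 0.24. Both lost the call without female 2 (adjusted p = 0.677 and 0.434) and under DESeq2, and Dach1 also without male 2 (0.42), with no filter on low counts (0.101), at a minimum of 4000 UMIs (0.132), with at least 2 Lum UMIs (0.958) and after thinning (0.891). In female 1, 21 of 24 Pde3a UMIs and 69 of 97 Dach1 UMIs came from 1 nucleus each, while in female 2 the highest nucleus held 31 of 113 and 80 of 283.

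Whether the difference between members and other GABA nuclei itself changed with sex was tested in 10666 genes (edgeR interaction of class and sex), and 1 was called, Gabrg3 (0.00938%). Its log2 fold change was 1.5 ± 0.22 (edgeR adjusted p = 0.00332), and the other GABA nuclei stood at 864 to 951 CPM in all 4 libraries. Leaving out 1 library gave from 4 calls (without female 2) to 23 (without male 1). The call was lost by DESeq2 (adjusted p = 0.223), which called 0 genes, with 41 at an unadjusted p under 0.05 against 421 by edgeR, and also where members needed 2 Lum UMIs, at equal depth, and where members needed Slc32a1 (adjusted p = 0.0767).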

How the data were processed

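Nuclei of 4 pooled ventral tegmental area libraries were measured by droplet sequencing, and the deposited matrices hold UMI counts for 32883 gene features per barcode. The submitters' processing notes name Cell Ranger and the rn6 build, and software version 3.0.2 is given per the file headers. The counts were used as deposited. Groups came from the labels. Members and gene lists were chosen with earlier results of these data known; 21 listed genes were not found by name. The 2000 UMI minimum was applied to members and comparison nuclei alike.

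For each class, UMIs were added up within a library, and the sums were tested by edgeR 4.0.16 (TMM scaling, its low-count filter, quasi-likelihood test, library as a block between classes, Benjamini-Hochberg adjustment, threshold 0.05) in R 4.3.3. Gating genes were left out of tests. DESeq2 1.42.0 was an alternative. The code was tested on simulated data with known changes. Fold changes are on the log2 scale, and CPM values compare classes within a gene, not genes with each other.

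Named genes were the 20 largest increases and 12 largest decreases against other GABA nuclei, 8 and 5 in the other class comparisons, and up to 6 called genes per list with the lowest p, with a mean of at least 20 CPM asked of the largest changes. Some genes that this rule names are not reported here. Doublets were called per library with Scrublet (scanpy 1.11.5) at an expected 0.8% per 1000 barcodes, kept in the main results and left out in an alternative. Whether replicate numbers pair female with male libraries could not be decided. With 2 libraries per sex the deviations mirror each other, so their correlation (0.087 for the same number) only changes sign for crossed numbers (-0.087). Other alternatives were another scaling, no filter, a minimum of 4000 UMIs, at least 2 Lum UMIs, thinning, other gates and leaving out each library.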

Additional observations from a re-analysis of the deposited data

Results flagged for a closer look

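Of 38 genes tested for a library apart from the other 3 in members, 6 were flagged. Chance flags about 1 in 20 groups, but that rate does not apply to Npas1, Pax5, Sox14 and Reln, where any UMI in 1 library is flagged once the other 3 are at 0. Npas1 was at 2.05 CPM in female 2, Pax5 at 4.22 CPM in female 1 and Sox14 at 3.53 CPM in male 2, each from 1 UMI, with 0 in the other libraries. Reln was at 14.3 CPM in female 2 and 0 elsewhere. Tmem114 was at 63.5 CPM in male 2, far above the other 3 libraries, and Rxrg was lowest in female 2, at 32.8 CPM.

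Gabrg3 was flagged because its difference between members and other GABA nuclei itself differed between the sexes by edgeR's test of the interaction (log2 fold change 1.5). The part that the 1 nucleus with 103 of its 111 UMIs in female 1 plays in this was not tested.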

How the results depend on the processing

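Counts of called genes against other, Gata3 and Meis2 GABA nuclei were 1588, 1804 and 625, of 9903, 8152 and 8152 tested. With DESeq2 they fell to 1031, 1181 and 387, and the cause of that difference was not tested. After thinning to 2000 UMIs they were 751, 784 and 290. Thinning leaves fewer UMIs, so fewer genes passed the filter, and these counts are of 6215, 3455 and 3455 tested. Leaving out 1 library gave 1196 to 1341, 1479 to 1555 and 444 to 554. With no replicate block they were 1298, 1456 and 452. With no filter on low counts, 775 were higher and 1004 lower than in other GABA nuclei. Over the genes followed, none changed sign: 3021 values kept direction and call and 152 lost the call against other GABA nuclei, 1993 and 107 against Gata3, and 1112 and 114 against Meis2 nuclei. Between the sexes, 9 calls became 16 without doublet calls, 1 after thinning, 34 with a replicate block and 13 to 77 without 1 library, where the lone library of a sex is assumed to vary like the other groups. Replicate numbers do not name shared animals, and whether libraries of the same number share anything else could not be decided. The 1 interaction call became 0 with DESeq2, 11 with no filter, 8 without doublet calls, 2 after thinning, 0 with Slc32a1 required of members, and 4 to 23 without 1 library; the cause was not tested. Without thinning, shares of members with a UMI were 77.8% for Kit, 94.5% for Nos1, 63.8% for Nts, 29.5% for Epyc, 85.6% for Slc32a1 and 38.5% for Gad2. Depth limits genes with few UMIs, since members summed to 236717 UMIs in female 1.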
